A study of Homo sapiens and Mus musculus with 21 samples.

Results

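The positions described here are the most heavily substituted N6-methyladenosine (m6A) sites of HEK293T, a human line that grew out of transformed embryonic kidney cells. A position was taken where, in at least 1 of 3 deposited miCLIP lists, it had 50 or more reads and at least 20% of those reads carried the substitution that marks the site. This rule kept 422 of 90876 distinct listed positions (0.464%), or 1.4% of the 30203 positions with 50 or more reads in some list. The percentage of substituted reads at a position is called the substituted share, and the positions kept are called members. The share is counted among antibody-bound reads, and the methylated fraction of the RNA is not measured by these lists. Members were chosen by their read number and substituted share in these 3 lists, so both are given as a description, without a test. Sequence letters, place in the gene and the level of the host RNA were not used by the rule. Its minimum of 50 reads may still favour abundant RNAs.

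m6A is the commonest internal modification of mRNA. A nuclear methyltransferase complex built on METTL3 and METTL14 writes it in the DRACH context, in which D is A, G or T, R is A or G and H is A, C or T, and proteins with a YTH domain read it and affect splicing, export and decay. Mapped m6A sites gather in long internal exons and around stop codons and 3' ends. PCIF1 is another enzyme, which methylates the 2'-O-methylated adenosine at the first transcribed base of capped mRNAs and so makes m6Am. In miCLIP an anti-m6A antibody is crosslinked to RNA with ultraviolet light, and the bound residue leaves substitutions in the reads, often at the cytosine that follows the methylated adenosine.

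The study asked which enzyme makes m6Am and where that mark lies, and it removed PCIF1 from HEK293T cells. The lists used for the rule came from 1 wild-type (WT) library and 2 PCIF1 knockout (KO) libraries of polyadenylated RNA, all made with 1 anti-m6A antibody. Input RNA, labelled as cytoplasmic, came from 2 WT and 3 KO libraries of the same line, and 2 further miCLIP lists came from WT mouse embryonic fibroblasts. How the knockout was made, and whether the KO replicates are separate clones or cultures, is not given in the labels. With 1 WT library, a difference between WT and KO cannot be told apart from a difference between libraries.

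The WT, KO replicate 1 and KO replicate 2 lists held 43663, 40768 and 47644 positions, with a median of 30, 37 and 42 reads per position. Every listed position had at least 2 substituted reads. Listed shares ran from 1% to 50% in WT and KO replicate 2, and from 1.04% to 50% in KO replicate 1. The median share of positions with 50 or more reads was 5.45% in WT, 5.51% in KO replicate 1 and 5.29% in KO replicate 2. Positions lay in 6, 4 and 5 of 8 marker genes of HEK293T in the same order of lists. They lay in 1, 0 and 0 of 8 fibroblast markers and in 0, 0 and 1 of 9 blood and endothelial markers.

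The listed coordinate is the cytosine at base 4 of the DRACH 5-mer. This held for 974 of 974 listed positions that fell inside a RefSeq promoter window of GRCh38.p14.

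A wider window could be read for 4 members that lie inside a RefSeq promoter window. The 3 of them that lie in 1 gene are shown, because each was missing from WT or from both KO lists. Capitals mark the 5-mer, and sequences are written as DNA from 5' to 3' on the strand of the RNA. The USP6NL position was read from the window of a neighbouring gene on the other strand, LOC105376411.
ZRANB2, chr1:71081017-71081045, minus strand: ttcctcctgtgaAGACAtagctgcgggtg
USP6NL, chr10:11463538-11463566, minus strand: atcgggtccacaGGACAgttccaggcaat
PSMD2, chr3:184300388-184300416, plus strand: ccacactatggcAAACTgaaggaaatcta

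The 5-mers of positions with high shares show the letters that the rest of the account compares. They belong to positions at or above the threshold in all 3 lists with high mean shares among those lying in 1 gene. EIF4EBP1 also belongs to this set, and its sequence is not printed. Capitals mark the methylated adenosine and the substituted cytosine of the deposited 5-mer.
ATG101, chr12:52077172-52077176, plus strand: agACa
POU3F2, chr6:98835363-98835367, plus strand: ggACc
SCAMP4, chr19:1925605-1925609, plus strand: ggACa
ASXL1, chr20:32433562-32433566, plus strand: agACt
COX10-DT, chr17:14034181-14034185, minus strand: agACa
DEAF1, chr11:644470-644474, minus strand: ggACt
ACIN1, chr14:23058773-23058777, minus strand: ggACt
TM9SF3, chr10:96521636-96521640, minus strand: ggACc
TBC1D25, chrX:48560247-48560251, plus strand: ggACc
RAE1, chr20:57378195-57378199, plus strand: ggACa

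The members were rich in 1 motif. GGAC, the core usually given as the preferred m6A context, was found at 248 of 422 positions (58.8%, exact 95% interval 53.9 to 63.5%). Among the other 29781 positions with 50 or more reads it was found at 33.4%, and among all listed positions at 32.1%. Within GGAC, most of the difference lay in GGACA, while GGACC also had a larger share among the members (8.77% against 5.51%). GGACA was found at 144 positions (34.1%, 29.6 to 38.9%) against 13.2% of the others. GGACT, in contrast, was found at 67 positions (15.9%, 12.5 to 19.7%) against 14.6%. These intervals are Clopper-Pearson intervals and cover counting error only, here and throughout. The labels do not say whether copies of 1 molecule were collapsed, and without that step reads would not be independent molecules.

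Letter by letter, the last base was A at 50.7% of the heavily substituted positions and at 34.4% of the others. It was T at 39.6% against 54.7%, and C at 9.72% against 10.9%. The base before the methylated adenosine was G at 82.5% against 65.6%. The first base was G at 70.4% against 52.5%, and T at only 6.64% against 15.9%. The next most frequent 5-mers after GGACA and GGACT were AGACT with 38 positions, GGACC with 37, AGACA with 36, GAACT with 26 and GAACA with 22. The 5-mer AAACC was found at 0 of the 422, as was TGACC and likewise TAACC, and the exact interval allows each a share of up to 0.87%.

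GGACA reached the threshold at a higher rate than GGACT in each list taken alone, with intervals that did not overlap. Of GGACA positions with 50 or more reads, 2.39% reached the threshold in WT (1.82 to 3.08%), 2.39% in KO replicate 1 (1.83 to 3.08%) and 2.3% in KO replicate 2 (1.8 to 2.88%). Of GGACT positions, 0.844% did so in WT (0.529 to 1.27%), 0.804% in KO replicate 1 (0.498 to 1.23%) and 1.12% in KO replicate 2 (0.79 to 1.54%). The rate for GGACC, 1.95%, 2.42% and 2.3%, was close to that of GGACA although its median share was lower, at 5.1%, 5.08% and 4.82% against 6.56%, 6.67% and 6.49%. AGACA varied more between lists, with 1.8%, 0.733% and 1.36%, and its intervals overlapped between all 3 lists. The sets differ in depth: the median of the highest read number was 80.5 at the heavily substituted positions and 95 at the others, and the part of depth in the motif shares was not tested.

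The lists from mouse embryonic fibroblasts, which the rule did not use, had a motif make-up of the same kind. There, 165 and 171 positions reached the same threshold, or 1.05% and 1.06% of those with 50 or more reads. Together they are 273 positions, of which 63 reached it in both lists. GGACA was found at 39.6% of the 273 (33.7 to 45.6%) against 14% of the other fibroblast positions with 50 or more reads. GGACT was found at 15% (11 to 19.8%) against 16.6%.

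The threshold was reached at 162 positions in WT, 159 in KO replicate 1 and 224 in KO replicate 2. As a part of the positions with 50 or more reads these are 0.996%, 0.949% and 1.03%, so the larger number in KO replicate 2 went with its larger number of deep positions, 21707 against 16266 in WT. Most positions reached the threshold in 1 list alone: 95 in WT, 92 in KO replicate 1 and 141 in KO replicate 2, or 328 together. A further 65 reached it in 2 lists and 29 in all 3. Without KO replicate 2, the rule would have kept 281 positions.

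Shares just at the threshold and just below it were nearly equal. COG2 with 14 of 70 reads, PROSER2 with 12 of 60 and DPCD with 11 of 55 were kept at 20%. CHAF1A with 23 of 116 reads, USP1 with 21 of 106 and PRR14 with 21 of 106 were not, at 19.8%. In all, 82 positions had a best share between 20% and 21%, 25 of them at exactly 20%, and 89 positions were left out with a best share between 19% and 20%.

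The 29 positions at or above the threshold in all 3 lists are described first. Their pooled share was 30.5% in WT (29.1 to 32%), 27.6% in KO replicate 1 (26.1 to 29.1%) and 30.1% in KO replicate 2 (28.8 to 31.4%). GGAC was found at 20 of the 29. Their median distance between highest and lowest list was 5.34 percentage points.

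ATG101, a subunit of the ULK1 complex that starts autophagy, led by mean share. Its position had 43 substituted of 98 reads (43.9%) in WT, 39 of 87 (44.8%) in KO replicate 1 and 47 of 101 (46.5%) in KO replicate 2. The 3 values lay within 2.66 points. POU3F2 encodes a POU-domain transcription factor of neural cells, and its position had 34 of 84 reads (40.5%) in WT, 30 of 67 (44.8%) and 38 of 89 (42.7%). SCAMP4, a secretory carrier membrane protein, had the most substituted reads of all, with 130 of 315 (41.3%) in WT, 56 of 162 (34.6%) and 130 of 316 (41.1%). In these 3 genes the intervals of all lists overlapped.

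The other positions of this group with the highest means varied more. ASXL1, a Polycomb-associated chromatin regulator, had 48 of 127 reads (37.8%) in WT, 36 of 133 (27.1%) in KO replicate 1 and 92 of 204 (45.1%) in KO replicate 2. EIF4EBP1, the translation repressor 4E-BP1 that mTOR phosphorylates, had 112 of 316 (35.4%), 87 of 369 (23.6%) and 100 of 281 (35.6%). In both genes KO replicate 1 was the lowest list and its interval lay below that of KO replicate 2. For EIF4EBP1 it also lay below that of WT, while WT and KO replicate 2 were nearly equal. DEAF1, a transcription factor, was even across lists, with 89 of 250 reads (35.6%), 77 of 241 (32%) and 109 of 338 (32.2%).

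ACIN1, the splicing-associated protein Acinus, had shares of 29%, 26.1% and 39.7% in WT, KO replicate 1 and KO replicate 2. In the same order, TM9SF3, a multi-pass membrane protein, had 35.4%, 24.2% and 33.3%. RAE1, an mRNA export factor of the nuclear pore, had 33.3%, 24.1% and 32.8%. KO replicate 1 was the lowest of the lists in these 3 genes, with intervals that overlapped those of WT. TBC1D25, a Rab GTPase-activating protein, ran the other way with 22.6%, 39.4% and 30%. COX10-DT, a noncoding transcript that starts beside COX10, had 40.3%, 21.7% and 38% on 50 to 62 reads.

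Other positions of the group lay in SNAP47, TMED2, DACH1, METTL23, BIRC6, FAM136A, CCNT2, TUG1, TOMM70, TRMT10C, SEC16A, TUBB4B and PHF6, and at 3 places in no single gene. SNAP47, a SNARE protein, varied least, with 59 of 258 reads (22.9%) in WT, 74 of 311 (23.8%) and 89 of 366 (24.3%). The unnamed place with the highest mean share, chr16:11350866-11350870 on the plus strand (ggACa), had 38.1%, 38.2% and 44.3%. TUBB4B, a beta-tubulin, had 22.5%, 20.8% and 20.7% on 183 to 497 reads. Tubulin genes and FAM136A have close copies in the genome, and reads of such copies may not be separable.

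**Figure D1:**
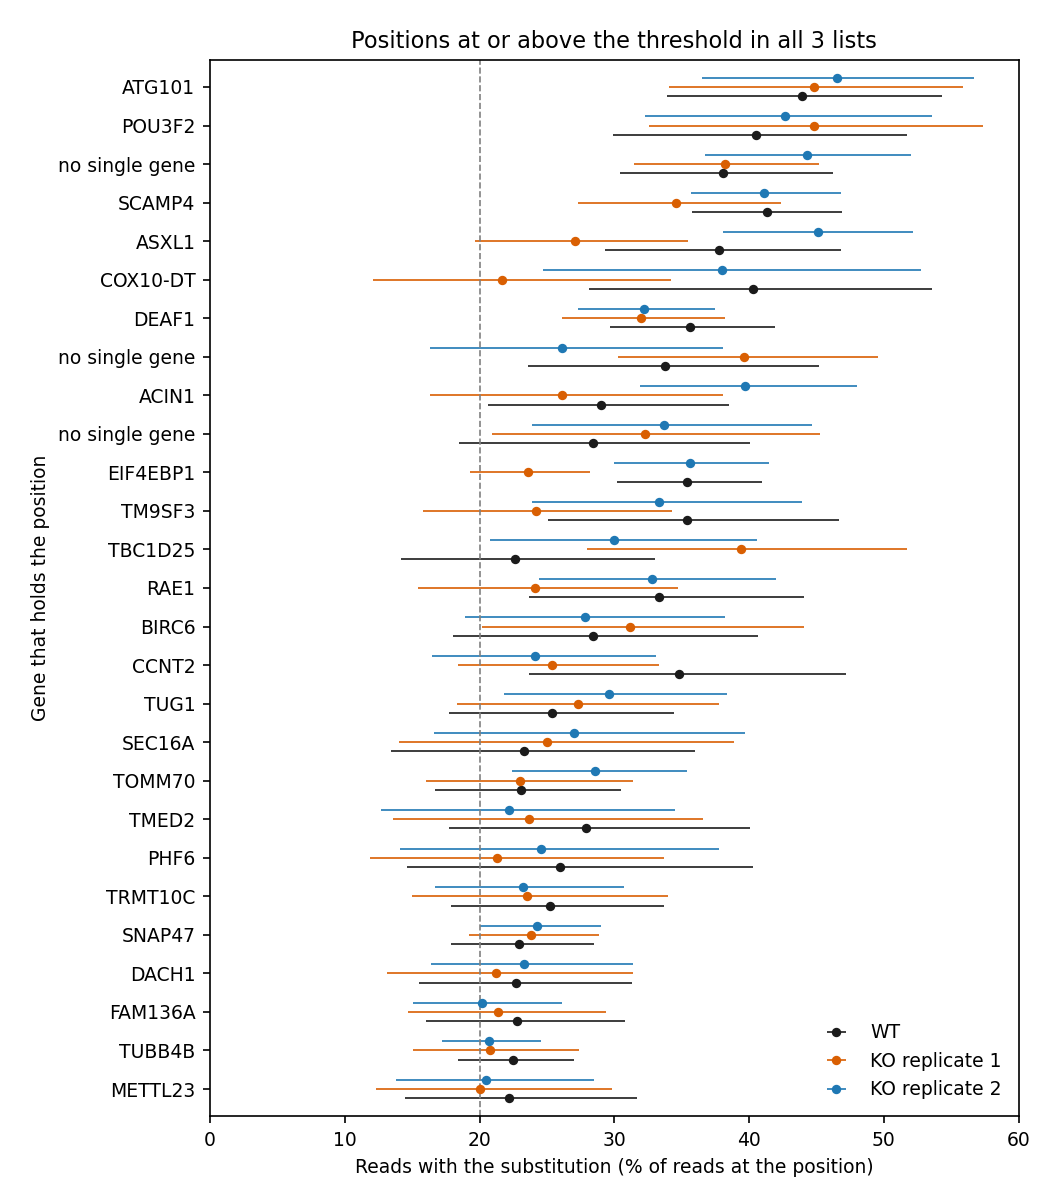
Substituted share in percent of reads (x axis) at 27 of the 29 positions that reached the threshold in all 3 lists (y axis, by host gene, ordered by mean share), with exact 95% intervals as bars and the 20% threshold as a dashed line. ATG101, POU3F2 and SCAMP4 lie at or above 34.6% in every list, and the plotted intervals of WT and KO overlap except between WT and KO replicate 1 at EIF4EBP1.

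DCTPP1, a pyrophosphatase that clears dCTP, had the deepest of the positions named by number of substituted reads. It had 72 of 443 reads (16.3%) in WT, 60 of 413 (14.5%) in KO replicate 1 and 130 of 618 (21%) in KO replicate 2. It was thus a member through KO replicate 2 alone, and its 3 intervals overlapped.

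Over all members, the level in a list cannot be told apart from the number of positions that list chose. KO replicate 2 alone chose 141, against 95 for WT alone and 92 for KO replicate 1 alone. In 248 members with 50 or more reads in all 3 lists, the median share was 19% in WT, 18.9% in KO replicate 1 and 20.2% in KO replicate 2. The pooled share was 19.3% (18.8 to 19.8%), 18.7% (18.2 to 19.2%) and 20.1% (19.6 to 20.5%) in that order. At all 8241 positions with that depth it was 5.91%, 5.86% and 5.81%. At 1 position, the highest and lowest lists lay a median of 10.9 points apart among the members and 3.23 points among all 8241. The rule itself asked for a high value in 1 list, so neither the levels nor the spread of the members is a measure of agreement.

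Exact intervals of WT and KO replicate 1 did not overlap at 12 of the 248 members, against 0.534% of all such positions. The numbers were 13 for WT and KO replicate 2 (background 0.692%) and 17 for the KO replicates (background 0.68%). Over all 8241 positions the numbers were 44, 57 and 56, in the same order of pairs. Nothing is read from the member numbers or their distance to the background, because a high value in 1 list chose the members.

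WT was above both KO lists at 82 members, below both at 88 and between or tied at 78. Over all 8241 positions the numbers were 2876, 2574 and 2791, in that order. WT was at least 1.5 times both KO values at 32 members, where 9.36% of all 8241 positions were. Both KO values were at least 1.5 times WT at 26 members, where the background was 8.6%. Shares in these same lists chose the members, so nothing is read from the member counts.

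A share was high in the list that chose the position and lower in the lists that did not. The 162 positions chosen in WT had a median of 23.3% there, 16.1% in KO replicate 1 and 16.6% in KO replicate 2. Those chosen in KO replicate 1 had 22.6% there, 18% in WT and 18% in KO replicate 2. Those chosen in KO replicate 2 had 23.3% there, 17.9% in WT and 17% in KO replicate 1. Among chosen positions with 50 or more reads in the list read, between 32.5% and 43.1% reached the threshold again, for all 6 pairs of lists.

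**Figure D2:**
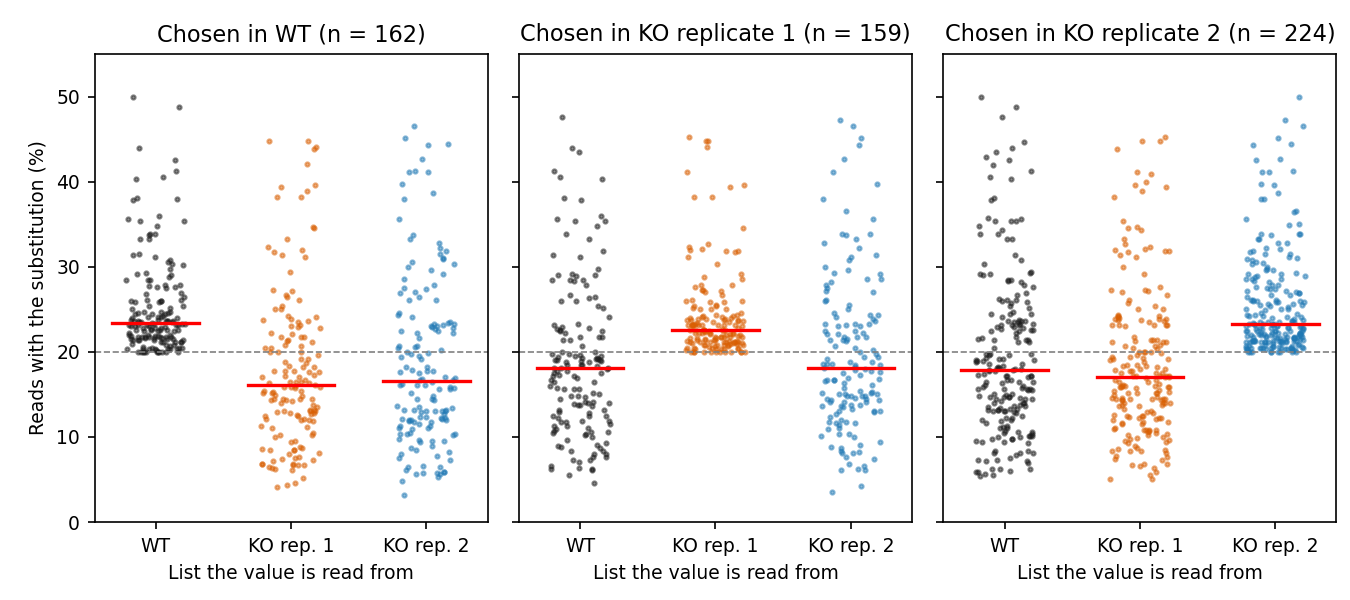
Substituted share in percent (y axis) of the positions chosen in WT, in KO replicate 1 and in KO replicate 2 (panels), read in each of the 3 lists (x axis). Points are positions, red bars are medians and the dashed line is the threshold; the chosen list has medians of 22.6 to 23.3% and the other lists of 16.1 to 18%.

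A comparison of lists whose own shares did not choose the positions takes those chosen in the third list. Both lists compared had to hold the position with 50 or more reads, so unlisted positions were left out. Positions chosen in KO replicate 2, with 50 or more reads in both others (129), had a median of 18% in WT and 18% in KO replicate 1, and the median of WT minus KO replicate 1 was 0.15 points. Positions chosen in KO replicate 1 (116) had 18% in WT and 18.3% in KO replicate 2, with a median difference of -0.716 points. Positions chosen in WT (111) had 15.9% in KO replicate 1 and 17.7% in KO replicate 2, with a median difference of -1.71 points. These medians come from different sets of positions and have no intervals, so they are not ranked. Across positions, Pearson's r was 0.59, 0.73 and 0.67 for these pairs, as a description over 129, 116 and 111 positions that share libraries and depth.

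**Figure D3:**
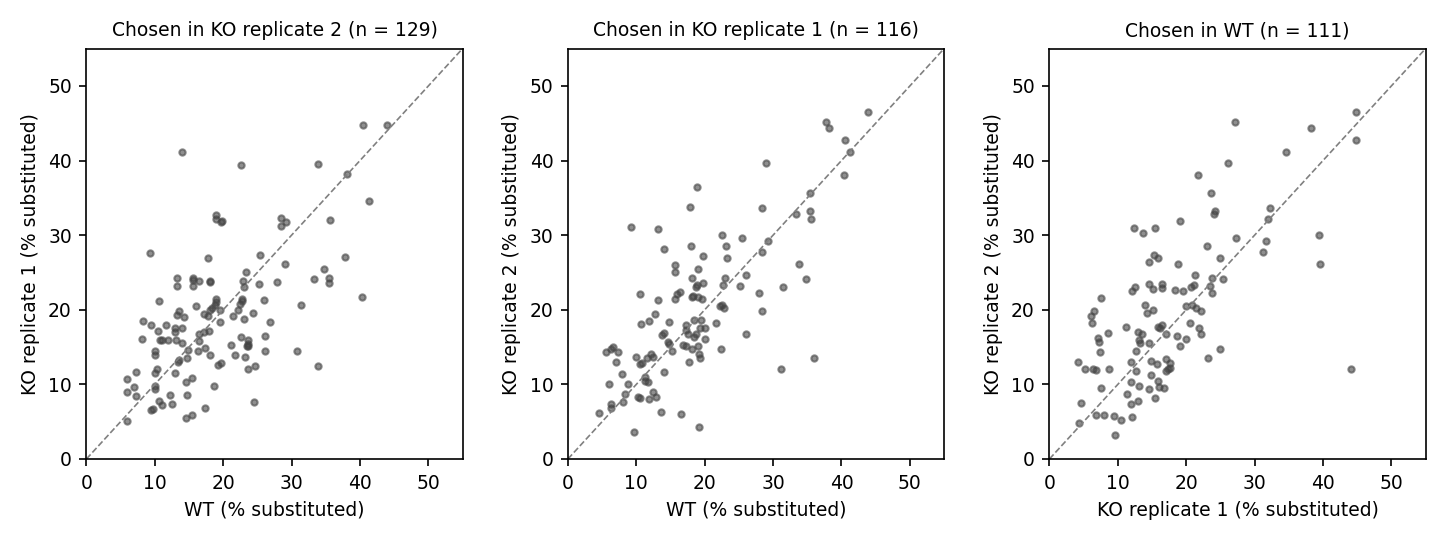
Substituted share in percent in 1 list (x axis) against another (y axis), for positions chosen in the third list and with 50 or more reads in both lists plotted; the dashed line is equality. Points scatter on both sides of the line, with a median distance between the lists of 4.58, 3.65 and 5.1 points from left to right.

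The widest spreads among members with 50 or more reads in every list are given as a description, since these shares chose the positions. ARL10, a small GTPase of the ARF-like family, had 23 of 74 reads (31.1%) in WT, 26 of 59 (44.1%) in KO replicate 1 and 6 of 50 (12%) in KO replicate 2. FGFR1OP2, named for its fusion with the FGFR1 receptor gene, had 7 of 50 (14%), 23 of 56 (41.1%) and 20 of 71 (28.2%). MTMR3, a phosphoinositide phosphatase, had 15 of 54 (27.8%), 3 of 72 (4.17%) and 7 of 54 (13%). WT was the middle list for ARL10, the lowest for FGFR1OP2 and the highest for MTMR3.

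PASK, a kinase with a PAS domain, had 36%, 23.2% and 13.5% in WT, KO replicate 1 and KO replicate 2. URB2, a ribosome biogenesis factor, had 6.56%, 28.8% and 15%. All 5 positions had between 50 and 107 reads in each list.

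Listing in all 3 lists was common. It held for 365 of 422 members (86.5%, 82.9 to 89.6%), while 32.6% of all positions with 50 or more reads in some list were listed in all 3. A further 47 members were in 2 lists and 10 in 1. Only 4 were listed in WT alone, where the background was 9.23%, and 12 were in both KO lists and not in WT, where it was 11.9%. Read number and share chose the members, so nothing is read from these distances to the background. A position missing from a list may have too few reads or too few substituted reads. No list held a share above 50%, so a position with a higher share may be missing too. These cannot be told apart in the deposited lists.

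ZRANB2, which encodes a zinc finger protein that binds RNA and acts in splicing, had the only member inside an authors' m6Am region. Its position had 29 of 86 reads (33.7%, 23.9 to 44.7%) in WT and was in neither KO list. It lies 5 nt after the annotated start of the gene, in the region chr1:71080951-71081050, whose deposited score is 4.31. The sequence printed above holds the AGACA. No other position within 200 nt was listed in any of the 3 libraries, so the reads of the KO libraries at this place are not known from the lists. Of the other positions with 50 or more reads, 0.178% lay inside such a region, against 0.237% (1 of 422) here.

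KBTBD6, an adaptor of a cullin ubiquitin ligase, had 48 of 113 reads (42.5%) in WT and was listed in neither KO library. Here the KO lists do hold positions close by: one 44 nt away with 89 reads in KO replicate 2, and one 161 nt away with 76 reads in KO replicate 1. NORAD, a noncoding RNA that binds Pumilio proteins, had 14 of 64 reads (21.9%) in WT alone. The KO lists held a position 130 nt from it with 200 and 247 reads. The last position listed in WT alone lay in no single gene and had 13 of 63 reads.

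TSHZ1, a zinc finger transcription factor, had the highest share among members with 50 or more reads in WT. Its position chr18:75286478-75286482 (ggACc) had 41 of 82 reads (50%) in WT and 44 of 99 (44.4%) in KO replicate 2, and it was not in the list of KO replicate 1. ATN1, the transcriptional corepressor atrophin-1, had 30 of 101 (29.7%) in WT and 29 of 76 (38.2%) in KO replicate 1, and was not in that of KO replicate 2. Each was missing from a single KO list, for a reason that the lists do not give. CPT2, PSMD2, DAXX and ZNF680 had a position listed in KO replicate 2 alone, and UNK and ICE1 in KO replicate 1 alone, with best shares of 20% to 23.1%.

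Of the 422 positions, 395 lay in exactly 1 gene span, 23 in several and 4 in none. The 395 fell into 365 genes, and 386 of them lay in genes annotated as protein coding, 7 in long noncoding RNAs and 2 in transcribed pseudogenes. A gene span here runs from the first to the last annotated base and includes introns. Exons, coding sequence and untranslated regions were not analysed here.

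The end of the span held a larger share of the members than of the other positions. The last 10% of the span held 201 of 395 (50.9%, 45.8 to 55.9%), against 42.8% of 27914 other positions with 50 or more reads. The first 10% held 3.04% (1.58 to 5.25%) against 5.38%. The median place was 90.4% of the way along the span, against 85.6%. With at least 100 reads in place of 50, the difference in the last 10% went from 8.05 to 16.5 points, while it was 4.89 points with at least 30 reads and 4.65 points with a share of 15% in place of 20%.

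In absolute distance the sets lay closer together. The median distance to the end of the span was 2741 nt against 2849 nt, and 26.1% (21.8 to 30.7%) against 22.9% lay within 1000 nt of it. METTL23, a methyltransferase-like protein, had its position 169 nt from the end of the span. TOMM70, a receptor of mitochondrial protein import, stood at the other end. Its position lay 132 nt after the start, at 0.351% of the span, and had 36 of 156 reads (23.1%) in WT, 29 of 126 (23%) and 56 of 196 (28.6%).

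**Figure D4:**
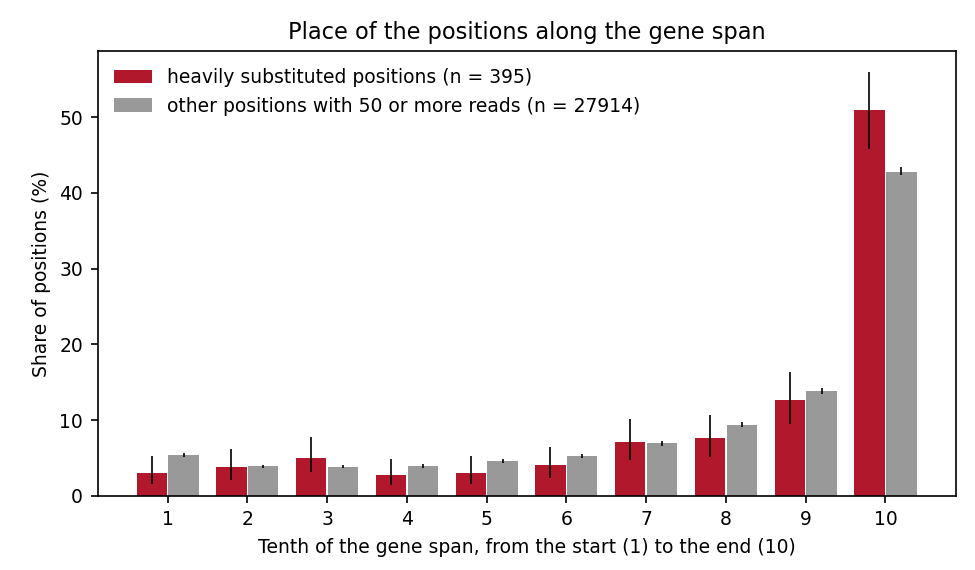
Share of positions in percent (y axis, from 0) in each of 10 equal parts of the gene span from start to end (x axis), for the heavily substituted positions (red, n = 395) and the other positions with 50 or more reads (grey, n = 27914), with exact 95% intervals as bars. The last part holds 50.9% of the former and 42.8% of the latter.

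Fewer members than other positions had a close listed neighbour. Another listed position lay within 50 nt for 37% of them (32.3 to 41.8%), against 63.6% of the others with 50 or more reads. Within 10 nt the shares were 5.92% and 16.2%, and within 100 nt they were 65.6% and 81.5%. No member had another member within 50 nt, and 4 had one within 100 nt. The others were read more deeply, as given above, and the part of depth in these shares was not tested.

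Most host genes had a single position: 340 had 1, 21 had 2, 3 had 3 and 1 had 4. MKI67, which encodes the proliferation antigen Ki-67, had the 4. Its GGACA at chr10:128106601-128106605 had 20 of 86 reads (23.3%) in WT, 11 of 35 (31.4%) in KO replicate 1 and 33 of 80 (41.2%) in KO replicate 2. A GGACA at chr10:128108059-128108063 had 23.5%, 38.9% and 30.5%, and another at chr10:128104675-128104679 had 24.7%, 11.3% and 8.66%. The AAACT had 11.3%, 10% and 22%. WT was the lowest list at 2 of these 4 positions and the highest at 1. These same shares chose the positions, so nothing is read from the order of lists.

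DAG1, the dystroglycan that links cells to laminin, had 3 positions between 93.6% and 95.7% of its span. A pair of them reached the threshold in KO replicate 2 alone, with 22.5% against 5.95% in WT, and 22.8% against 9.72%. The other reached it in WT, with 21.9% against 17.8% and 12.2%. ZCCHC14, a zinc knuckle protein, had 3 positions, the strongest with 41.9% of 31 reads in WT and 23% of 61 in KO replicate 2. TSHZ1 also had 3, of which chr18:75286154-75286158 had 38% in WT, 14.3% in KO replicate 1 and 6.49% in KO replicate 2.

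ALDH1B1, a mitochondrial aldehyde dehydrogenase, had a GAACA with 18.9% in WT, 21.1% in KO replicate 1 and 23.3% in KO replicate 2, and a GGACA with 21.7%, 22.6% and 12.3%. BCOR, a corepressor, had a GGACA with 17.2%, 24.3% and 18% and a GAACA with 10.2%, 20.2% and 8.28%. Both BCOR positions were highest in KO replicate 1. CEP170B, a centrosomal protein, had 2 positions of GGACA, and CPT2, a carnitine palmitoyltransferase, had an AGACT and a TGACT less than 100 nt from each other.

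Host genes were also set against lists of genes by function. Of 5510 genes with a position of 50 or more reads, 365 had a heavily substituted one (6.62%). Histone methyltransferases and demethylases had 5 of 25 genes (20%, 6.83 to 40.7%), namely NSD2, KMT2A, KDM6A, NSD1 and KMT2D, the last with 2 positions. The H3K36 methyltransferase NSD2 had 26.5% of 34 reads in WT, 21.4% of 56 and 21.4% of 42. KMT2A, an H3K4 methyltransferase, had 13.2%, 13.8% and 26.7%, and KDM6A, an H3K27 demethylase, had 14.8%, 22.2% and 15.4%. The H3K36 methyltransferase NSD1 had 26.8% in WT against 13.1% and 9.8%. Per position, 6 of 287 deep positions in these genes were members (2.09%, 0.771 to 4.49%), an interval that holds the 1.4% of all positions.

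Among writers, readers and erasers of m6A and m6Am, 2 of 19 genes had such a position. RBM15B, which recruits the methyltransferase complex, had 61 of 227 reads (26.9%) in WT, 37 of 202 (18.3%) and 63 of 278 (22.7%). YTHDC1, the nuclear reader, had 10 of 41 (24.4%), 8 of 57 (14%) and 15 of 52 (28.8%). All intervals overlapped within each of the pair. PCIF1 itself had 2, 1 and 1 listed positions, none of them heavily substituted.

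Immediate early and growth transcription factors had 2 of 19 genes. HES1, a Notch target and repressor, had 29%, 26% and 27.5% on 31 to 50 reads, and KLF10, a TGF-beta-induced repressor, had 12.5%, 23.1% and 18.8% on 16 to 52. Insulin and mTOR signalling had 1 of 13 genes, EIF4EBP1. Notch, Wnt and Hippo signalling had 0 of 18 (up to 18.5% by the exact interval), and cytosolic ribosomal proteins had 0 of 57 (up to 6.27%). Per position, ribosomal protein genes had 0 of 204, which allows up to 1.79% and so does not fall below the 1.4% of all positions.

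Zinc finger genes named ZNF had 11 of 141 (7.8%, 3.96 to 13.5%). ZNF398 stood highest, with 20 of 42 reads (47.6%) in WT, 28 of 62 (45.2%) in KO replicate 1 and 25 of 53 (47.2%) in KO replicate 2. Its WT read number, 42, was below the minimum of the rule. ZNF32 had 28.4%, 22.2% and 19.8%, and ZNF598, a ubiquitin ligase of collided ribosomes, had 17.2%, 17% and 32.8%. Solute carriers had 7 of 107 (6.54%, 2.67 to 13%). The glutamine transporter SLC1A5 had 17 of 129 reads (13.2%) in WT, 45 of 194 (23.2%) and 40 of 130 (30.8%), where the interval of WT lay below that of KO replicate 2. SLC30A9, a zinc transporter, had 18%, 23.8% and 28.6%, and SLC25A38, a mitochondrial glycine carrier, had 26.1%, 16.5% and 22.9%. Housekeeping genes had 1 of 14, TUBB4B.

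The RNA level of the host genes was compared between KO and WT in the input libraries, which held 4511687 to 5960674 counts. Of 365 host genes, the 60 that the deposited class tables pair with an identifier could be named, and all 60 were tested. None changed by edgeR's quasi-likelihood test at an adjusted p of 0.05, where 0.0342% of 14629 genes did, and DESeq2 also called 0 of the 60. At an unadjusted p under 0.05, 5 were higher and 10 lower in KO, where 9.3% of all genes passed in either direction. The median log2 fold change of KO over WT was -0.01, from -0.45 to 0.62, against -0.02 over all genes. Leaving off the filter on low counts gave 4 calls among the 60. Leaving out WT replicate 2 also changed the number called, with 1 WT library that is assumed to vary like the KO libraries. The share of all genes called under these settings is not given here, so neither is read as a trait of the host genes.

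PHF6, a PHD finger protein of chromatin, had the lowest p of the higher genes. It had 27 and 42.5 CPM in WT and 52.9, 62.4 and 43.3 CPM in KO, so the groups did not overlap, although KO replicate 3 and WT replicate 2 lay close. Its log2 fold change was 0.62 (SE 0.21, edgeR adjusted p = 0.493), and without WT replicate 2 the edgeR adjusted p was 2.54e-05, in a range up to 0.909 over the alternatives. LIN28B, the let-7 inhibitor, had 19.1 and 22.2 CPM in WT and 30.6, 27.3 and 28.8 in KO, a log2 fold change of 0.49 (SE 0.18, edgeR adjusted p = 0.513). IPO7, an importin, had 50.6 and 67.3 CPM in WT and 74.6, 81.5 and 70.8 in KO, a log2 fold change of 0.37 (SE 0.15, edgeR adjusted p = 0.514). Without WT replicate 2 the edgeR adjusted p of IPO7 was 0.00409, in a range up to 0.973.

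On the lower side, FTSJ3, an rRNA processing factor, had 344 and 318 CPM in WT and 266, 271 and 277 in KO. Its log2 fold change was -0.28 (SE 0.09), with the lowest adjusted p of the 60 in edgeR, 0.481. Without WT replicate 2 it was 0.0164, in a range up to 0.909. SPTBN1, a spectrin, had 680 and 491 CPM in WT and 465, 477 and 431 in KO, a log2 fold change of -0.35 (SE 0.12, edgeR adjusted p = 0.493). Without WT replicate 1 this was -0.09, and without WT replicate 2 it was -0.55 (edgeR adjusted p = 1.87e-07, in a range up to 0.995); without a filter on low counts it was -0.36 (edgeR adjusted p = 0.0352). NHSL3 had 140 and 139 CPM in WT and 109, 119 and 113 in KO, a log2 fold change of -0.29 (SE 0.10, edgeR adjusted p = 0.513). The groups did not overlap in any of these 6 genes, which were taken by lowest p. With all libraries, none of the differences passed the adjustment.

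The 60 of 365 host genes that could be named had the same median level as the named hosts of other deep positions. The median WT input level was 175 CPM for the 60 host genes and 175 CPM for 872 named hosts of other positions with 50 or more reads. The 467 other named genes, to which no position with 50 or more reads was assigned, had a median of 57.2 CPM. A minimum of reads may favour abundant RNAs, so nothing is read from this lower level.

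The authors' deposited table of translational efficiency listed 33 of the host genes among 765. Of the 33, 0 had an adjusted p under 0.05 in the authors' deposited table, where 2 of all listed genes (0.261%) did. Its header does not say which genotype was divided by which, so no direction is given. The authors' deposited SLAM-seq table, which follows the loss of 4-thiouridine label, listed 28 host genes among 666. Their median KO over WT ratio in the authors' deposited table was 0.814, against 0.891 for all listed genes, and 8 of 28 (28.6%) had a ratio above 1, against 39.6%. The ratios in the authors' deposited table ran from 0.343 for CPD, a carboxypeptidase, to 1.87 for PPP2R5C, a regulatory subunit of protein phosphatase 2A. These tables give 1 value per gene without replicates.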

How the data were processed

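The authors deposited, per the file headers and names, 1 list of single DRACH positions for each miCLIP library, with whole-number counts of reads and of substituted reads. They also deposited input read counts per Ensembl gene, a table of log2 fold changes of unstated direction, with p-values, for translational efficiency, SLAM-seq ratios, and m6Am regions with a score whose scale is not stated. Per the submitters' processing notes, BWA 0.7.17, STAR, bedtools and deepTools were used with GRCh38, hg38 and mm10. The sources used here give neither their roles nor the site caller.

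The members and lists were chosen with earlier results of these data known. Lists were joined by chromosome, position and strand, and members needed 50 or more reads and a share of 20% in 1 list. Positions were named by the 1 RefSeq gene span (GRCh38.p14) that held them, after spans known to lie on the other strand were dropped; for 325 of 395 the strand was known. Named genes follow fixed rules: the 12 highest mean shares among positions passing in all 3 lists, the 5 with most substituted reads, the 5 widest spreads, genes with most positions (10 genes), 3 positions on each side of the threshold, at most 4 per gene list, and 3 host genes of lowest p per direction. Other names, such as single-list positions, SNAP47, TOMM70, METTL23, ZRANB2 and KBTBD6, were chosen after their values were seen.

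Input counts went into edgeR 4.0.16 under R 4.3.3 (TMM, filterByExpr, robust quasi-likelihood F test, two-sided, Benjamini-Hochberg over all genes), after the code was tested on simulated data. DESeq2 1.42.0 was the alternative. P-values cover only the spread of these libraries, possibly technical. CPM was computed from the deposited counts. Other steps ran in Python 3.11.15 (numpy 2.4.6, pandas 2.3.3, scipy 1.17.1, matplotlib 3.10.9). The input level of PCIF1 is not analysed here. Other rules for members, backgrounds and fits were tried as alternatives. Some positions are not reported here.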

Additional observations from a re-analysis of the deposited data

How the results depend on the processing

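The number of positions follows the rule. It was 1186 at 30 or more reads and 95 at 100 or more, 1421 at a share of 15% and 142 at 25%, and 29 where all 3 lists had to pass. Without 1 list it lay between 281 and 330. The GGAC difference from other positions, 25.4 points, was 19.6 at 30 reads, 32 at 100 reads, 17 at a share of 15%, 35.3 for all 3 lists and 24.1 to 27.1 without 1 list. The GGACA difference, a result added after seeing the data, was 20.9 points and ranged from 17 to 26.7. The difference in the last 10% of the span, 8.05 points, was 16.5 at 100 reads, 4.89 at 30 reads and 4.65 at a share of 15%, the lowest value, and 7.69 to 8.75 without 1 list. With gene spans taken without strand, chosen after seeing the data, it was 6.02. All of these kept their direction in every alternative run. The share listed in all 3 lists, 86.5%, was 61.7% at 30 reads, 96.8% at 100 reads, 77.1% at a share of 15% and 90.8% at 25%. The cause of these movements was not tested. Counting place by any transcript, 3' end first, was not run, since no transcript annotation was used here.

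In the input, edgeR called 4 of the 60 host genes without a filter on low counts, and between 0 and 18 without 1 library (18 without WT replicate 2); the cause was not tested. The share of all genes called in these alternative fits is not given, so the counts are not read as a trait of the host genes. The fit without WT replicate 2 also rests on 1 WT library, whose spread cannot be measured. With the replicate number as a block, over replicates 1 and 2, 0 host genes were called. The labels do not say that the numbers pair libraries. Deviations of WT and KO replicate 1 correlated at 0.16, and those of replicate 2 at 0.00 in size. No paired result is given in the report.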
